A study of Homo sapiens with 12 samples.

Results

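The genes of 9 apolipoproteins and of MTTP, the transfer protein that loads lipid onto nascent APOB, were described in HuH-7, a long-established human liver cancer cell line. The 10 genes (APOA1, APOA2, APOB, APOC1, APOC2, APOC3, APOE, APOH, APOM and MTTP) were taken by name from the 57773 Ensembl identifiers of the files, and all 10 were found and had enough reads to be tested. RNA immunoprecipitation followed by sequencing (RIP-seq) was used to compare the RNA recovered with a SUMOylation mutant of HuR and with WT HuR, the product of ELAVL1. SUMOylation joins small ubiquitin-like modifiers to lysines of a protein, and the mutant has arginines at the lysines it is named for. The 12 libraries formed 4 groups of 3: V5 precipitates (mutant RIP) and total RNA (mutant input) of HuH-7 cells that stably expressed HuR K120/182R, and V5 precipitates (WT RIP) and total RNA (WT input) of HuH-7 cells that stably overexpressed WT HuR. The HuR of both lines carried the V5 tag, and the labels mention no removal of the cells' own HuR. They do not say whether each line was 1 clone, nor whether replicates were separate cultures, so p-values measure only how far these libraries spread, and that spread may be technical. The column headers of all 12 libraries carry the word DMSO, while the labels name no treatment. No precipitate from cells without the tag was analysed here, so recovery below was always set against input.

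Apolipoproteins are the protein parts of the particles that carry lipid in plasma, and the liver secretes most of them. APOB is the structural protein of very-low-density and low-density lipoproteins and gets its first lipid from MTTP in the endoplasmic reticulum. APOA1 and APOA2 are the main proteins of high-density lipoproteins. APOC1, APOC2, APOC3 and APOE move between particles and tune lipolysis and uptake. HuR binds stretches rich in U or in A and U, mainly in 3′ UTRs and introns, and is known for affecting the stability and translation of the bound mRNA.

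The stretches of that kind in the 3′ UTRs of the 10 genes are shown first, because they differed between members. They were read from the Ensembl canonical transcripts in GENCODE release 44 placed on GRCh37, on the transcribed strand only, with U written as T. The capitals mark the 1 match that each window was drawn around, either ATTTA (the AUUUA pentamer) or a run of 5 or more T, and the first and second windows of MTTP each hold a further match in lower case. ATTTA and a run cannot hold one another, since ATTTA has only 3 T. MTTP had 5 ATTTA and 8 runs, of which 3 windows are printed. APOB had 1 ATTTA and 2 runs, APOH had 2 ATTTA, APOC2 had 1 ATTTA and APOM had 1 run.
MTTP, chr4:100544468-100544497, plus strand: caaacaaaccaTTTTTTTTctctttttttg
MTTP, chr4:100544089-100544118, plus strand: acagcgtttacatATTTAcctgtatttaag
MTTP, chr4:100544990-100545019, plus strand: aacatttgcaaatATTTAttaataaacaga
APOB, chr2:21224566-21224595, minus strand: aaaagaaatcttcATTTAttcttcttttcc
APOB, chr2:21224376-21224405, minus strand: agaaggatggcaTTTTTTgcaagttaaaga
APOH, chr17:64208151-64208180, minus strand: aaaaataaagctactgaATTTAttgccgca
APOC2, chr19:45452716-45452745, plus strand: cagtccagccaacATTTAatgagcacctac
APOM, chr6:31625958-31625987, plus strand: aagataataaagataaTTTTTcaatcctca
The 3′ UTRs of APOA1, APOA2, APOC1, APOC3 and APOE held neither motif.

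The 3′ UTRs of these genes were short. They measured 57 bases in APOA1, 100 in APOH, 113 in APOA2, 116 in APOC1, 121 in APOM, 143 in APOE, 188 in APOC3, 301 in APOB, 316 in APOC2 and 1149 in MTTP. The median over 13643 tested protein-coding genes with a canonical 3′ UTR was 1242 bases, and 9 of the 10 genes lay among the 4550 shortest (up to 675 bases). ATTTA was present in 71.5% of all those 3′ UTRs and a run of 5 or more T in 79.5%. Among the 2352 coding genes with a 3′ UTR of at most 316 bases, the shares were 23.6% and 34.2%. A match describes these letters only.

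The 12 libraries held 31774994 to 73149117 counts each, and no gene of the 10 had fewer than 241 counts in a library. Per the labels, a precipitate gave 16 to 77 ng of RNA to its library and an input 250 ng, and the amount of RNA cannot be told apart from the precipitation. ELAVL1 stood at −0.34 in mutant RIP over WT RIP (log2, adjusted p = 0.0561) and −0.27 in mutant input over WT input (adjusted p = 0.14). The first of these passed with the replicate number as a block (0.0329), with the GC trend removed (0.0219) and in 6 of the 12 fits that left out 1 library (lowest 0.0178), and the second with total library size (−0.72, 0.00277). All 8 hepatocyte markers of a chosen list (ALB, AFP, TTR, TF, SERPINA1, FGB, HNF4A and AHSG) were present in all 12 libraries. Of 5 enterocyte markers, FABP2 was at 0 in 9 of 12 libraries, while VIL1 (22.3 to 39.3 CPM) and SI (7.51 to 19.1 CPM) were present in all 12. The enterocyte markers summed to 33.7 to 38.7 CPM in mutant RIP and 45.6 to 55.6 CPM in WT RIP, and to 37.8 to 44.7 CPM in mutant input and 53.1 to 56.3 CPM in WT input. Of 5 cholangiocyte and progenitor markers, KRT7 was at 0 in 9 libraries and EPCAM (19.5 to 35.2 CPM) and SOX9 (13.2 to 34.9 CPM) were present in all. The 6 immune markers summed to 9.10 to 11.5 CPM in mutant RIP and 7.71 to 8.70 CPM in WT RIP, and to 12.7 to 13.9 CPM in mutant input and 8.21 to 10.7 CPM in WT input. The sum of 7 stromal and endothelial markers stayed between 0.620 and 2.42 CPM. Levels of 1 gene between libraries are given as CPM of the library size scaled by TMM (trimmed mean of M values). Levels of different genes are given only per exon length, in TPM, the share of transcripts.

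APOA1 and APOA2 were the most abundant of the 10 mRNAs in the inputs, and APOM was the least abundant. On the TPM scale the order of levels over the 6 inputs was APOA1 (mean 304), APOA2 (162), APOC1 (48.0), APOE (39.9), APOC3 (17.2), APOC2 (10.9), APOB (8.43), MTTP (6.0), APOH (5.01) and APOM (2.76). Among 14017 protein-coding genes, APOA1 ranked 11 to 17 and APOA2 25 to 37 by TPM in single inputs, APOB ranked 616 to 939, and APOM ranked 1706 to 2666. Of the 9 neighbours in this order, 8 kept their order in all 6 inputs, and APOC2 was above APOB in 5 of 6. The counts of APOC2 are those of a locus of several genes, described below, set over the exon length of APOC2 alone, so its place is uncertain. Over separate inputs the ranges of APOC1 and APOE overlapped in both lines. In the WT inputs those of 5 further pairs overlapped as well (APOA1 and APOA2, APOC3 and APOC2, APOC2 and APOB, APOB and MTTP, and MTTP and APOH), while no further pair overlapped in the mutant inputs.

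The TPM of a library depends on what its other genes take, so these levels order genes and do not compare the lines. APOA1 had 351, 231 and 230.1 TPM in the 3 mutant inputs and 380.4, 215 and 414 TPM in the 3 WT inputs. APOE had 38.1, 22 and 23.5 TPM in the mutant inputs and 61.9, 35.2 and 58.9 TPM in the WT inputs. APOB, whose mRNA is far longer than the others, had 5.37, 6.43 and 6.26 TPM in the mutant inputs and 13.7, 6.64 and 12.2 TPM in the WT inputs. WT input 2 was lowest of its group for all 3 genes. The order of the 10 genes was the same with the length of the longest transcript, with CPM per kilobase and without each input in turn.

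**Figure D1:**
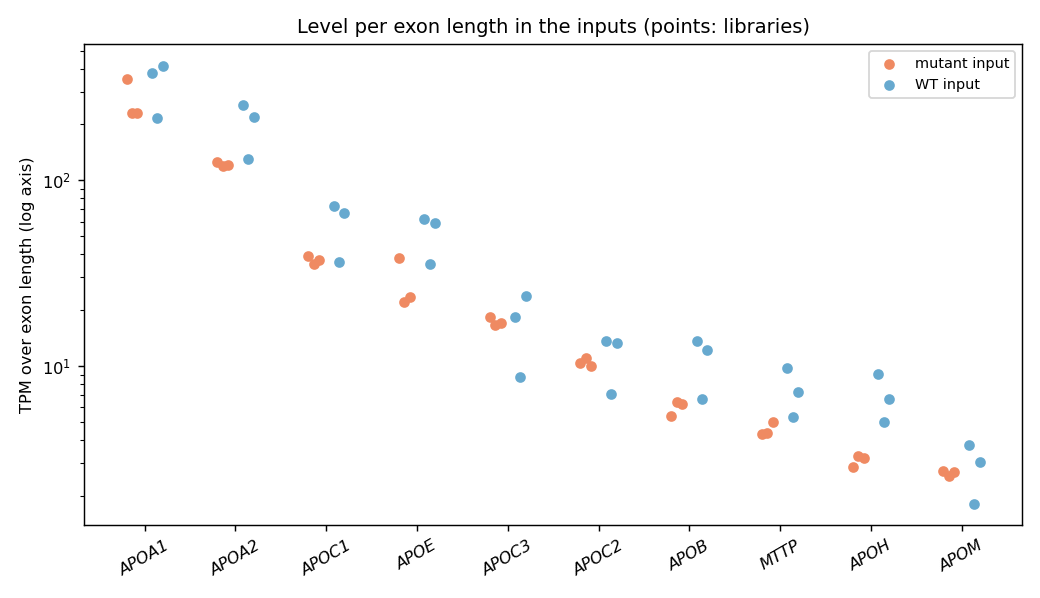
Level of each gene per exon length (TPM, log axis) in the 3 mutant inputs and the 3 WT inputs, 1 point per library, in the order of the mean over the 6 inputs. APOA1 averaged 304 TPM and APOM 2.76 TPM, and WT input 2 is the lowest WT point of each gene.

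In the precipitates the order was different: APOA2 (mean 306 TPM) stood above APOA1 (199 TPM), and APOC2 (84.6 TPM) and APOB (22.8 TPM) stood above APOE (13.7 TPM). Here too the counts of APOC2 are those of its locus. Only APOA1 (304 TPM in inputs) and APOE (39.9 TPM in inputs) had a lower mean TPM in precipitates than in inputs, and the other genes had a higher one. TPM depends on what the other genes of a library take, so it orders genes here and does not measure recovery. The 10 genes together took 0.187% ± 0.0226 of the protein-coding counts in mutant RIP against 0.575% ± 0.0608 in mutant input, and 0.231% ± 0.0334 in WT RIP against 0.580% ± 0.0337 in WT input (SD, n = 3 each). This share weights each gene by its counts and does not hold for each gene. In the mutant line APOA1 averaged 1169 CPM in input and 166 CPM in RIP, and APOE 236 and 18.7 CPM. APOB averaged 355 and 228 CPM, and the APOC2 locus rose from 52.8 to 102 CPM.

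Of the 10 genes, 9 were lower in precipitates than in inputs in both lines, and APOC2 was higher, on the TMM scale. On that scale the largest differences were those of APOE and APOA1, while APOB had the smallest. All 10 passed an adjusted p of 0.05 in both lines (edgeR's quasi-likelihood test, Benjamini-Hochberg over 22984 genes), and the 3 precipitates and 3 inputs of a line did not overlap for any of them. In the mutant line 57% of all genes tested were called, 28% lower and 29% higher in the precipitate, and in the WT line 50.9% were called, 25.4% lower and 25.6% higher. All 3 precipitates lay below all 3 inputs in 30.3% of genes in the mutant line and in 28.8% in the WT line. All 3 precipitates lay above all 3 inputs in 32.9% of genes in the mutant line and in 30.4% in the WT line. The median of the 10 log2 fold changes was −1.01 in the mutant line and −0.97 in the WT line, against 0.072 and 0.063 over all genes tested and −0.11 and −0.13 over protein-coding genes. These directions are relative to the typical gene: scaling by total library size moved the median of all genes to 1.38 in the mutant line and 1.12 in the WT line, and then only APOA1, APOE and, in the mutant line, APOC3 stayed below 0.

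**Figure D2:**
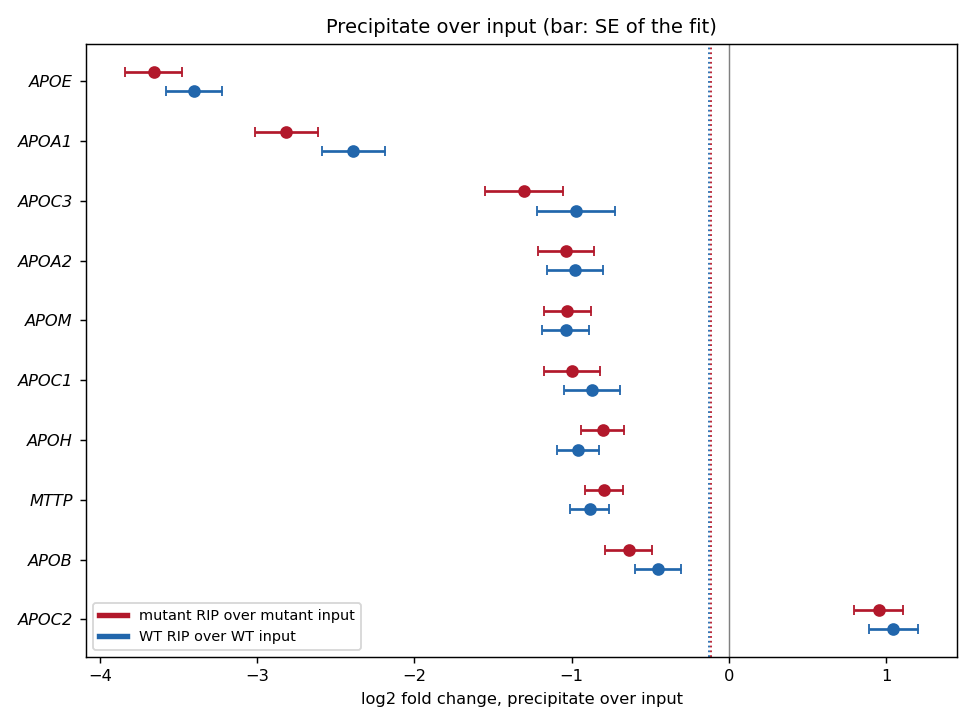
Log2 fold change of each gene (horizontal axis) for mutant RIP over mutant input and for WT RIP over WT input; points are estimates of the fit, bars are their SE and the dotted lines mark the medians of protein-coding genes. APOE lies at −3.66 and −3.40 and APOC2 at 0.95 and 1.04, and under scaling by total library size 6 genes in the mutant line and 7 in the WT line turn from below 0 to above 0.

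Among the proteins of high-density lipoproteins, APOA1, the activator of LCAT, had 170.1, 205 and 124 CPM in mutant RIP and 1453, 1097 and 956 CPM in mutant input. In the WT line it had 163, 233 and 169.7 CPM in WT RIP and 893, 974 and 1098 CPM in WT input. Every precipitate was at or below 233 CPM and every input at or above 893 CPM. The log2 fold change was −2.81 ± 0.20 in the mutant line (SE, n = 3 and 3; adjusted p = 2.07e-11) and −2.39 ± 0.20 in the WT line (adjusted p = 5.24e-10), so recovery was 7.03-fold lower in mutant RIP and 5.24-fold lower in WT RIP than in input. Under scaling by total library size it was smaller, at −1.51 (log2) in the mutant line and −1.34 in the WT line. The gene lies at chr11:116706467-116708338 on the minus strand. An antisense gene, APOA1-AS, shares 11.2% of its exon bases and held 0.175 to 0.246 counts for each count of APOA1, so reads from the pair may not be separate: the counting's use of strand is not given in the sources used here.

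APOA2, which lies at chr1:161192082-161193421 on the minus strand, had 176, 278 and 215 CPM in mutant RIP and 449.7, 489.7 and 435 CPM in mutant input. It had 192, 339.6 and 246 CPM in WT RIP and 514, 510.2 and 504 CPM in WT input. Both precipitate groups stayed below their inputs, with the second library highest in each. The log2 fold change was −1.04 ± 0.18 in the mutant line and −0.98 ± 0.18 in the WT line (adjusted p = 2.11e-05 and 5.91e-05). A gene on the opposite strand, AL590714.1, shares 22.8% of the exon bases and held 0.576 to 0.651 counts for each count of APOA2. APOM, the carrier of sphingosine 1-phosphate on high-density lipoproteins, had 5.73, 7.63 and 5.78 CPM in mutant RIP and 12.8, 13.7 and 12.5 CPM in mutant input. It had 3.98, 5.10 and 4.68 CPM in WT RIP and 9.93, 9.27 and 9.13 CPM in WT input. Recovery was below input by nearly the same size in both lines, −1.03 ± 0.15 in the mutant line and −1.04 ± 0.15 in the WT line (log2; adjusted p = 1.54e-06 and 2.14e-06). BAG6 on the opposite strand shares 11% of the exon bases of APOM (chr6:31620193-31625987, plus strand), holds 2.62 to 4.33 counts for each of its counts, and had enrichments of −0.92 in the mutant line and −1.0 in the WT line.

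**Figure D3:**
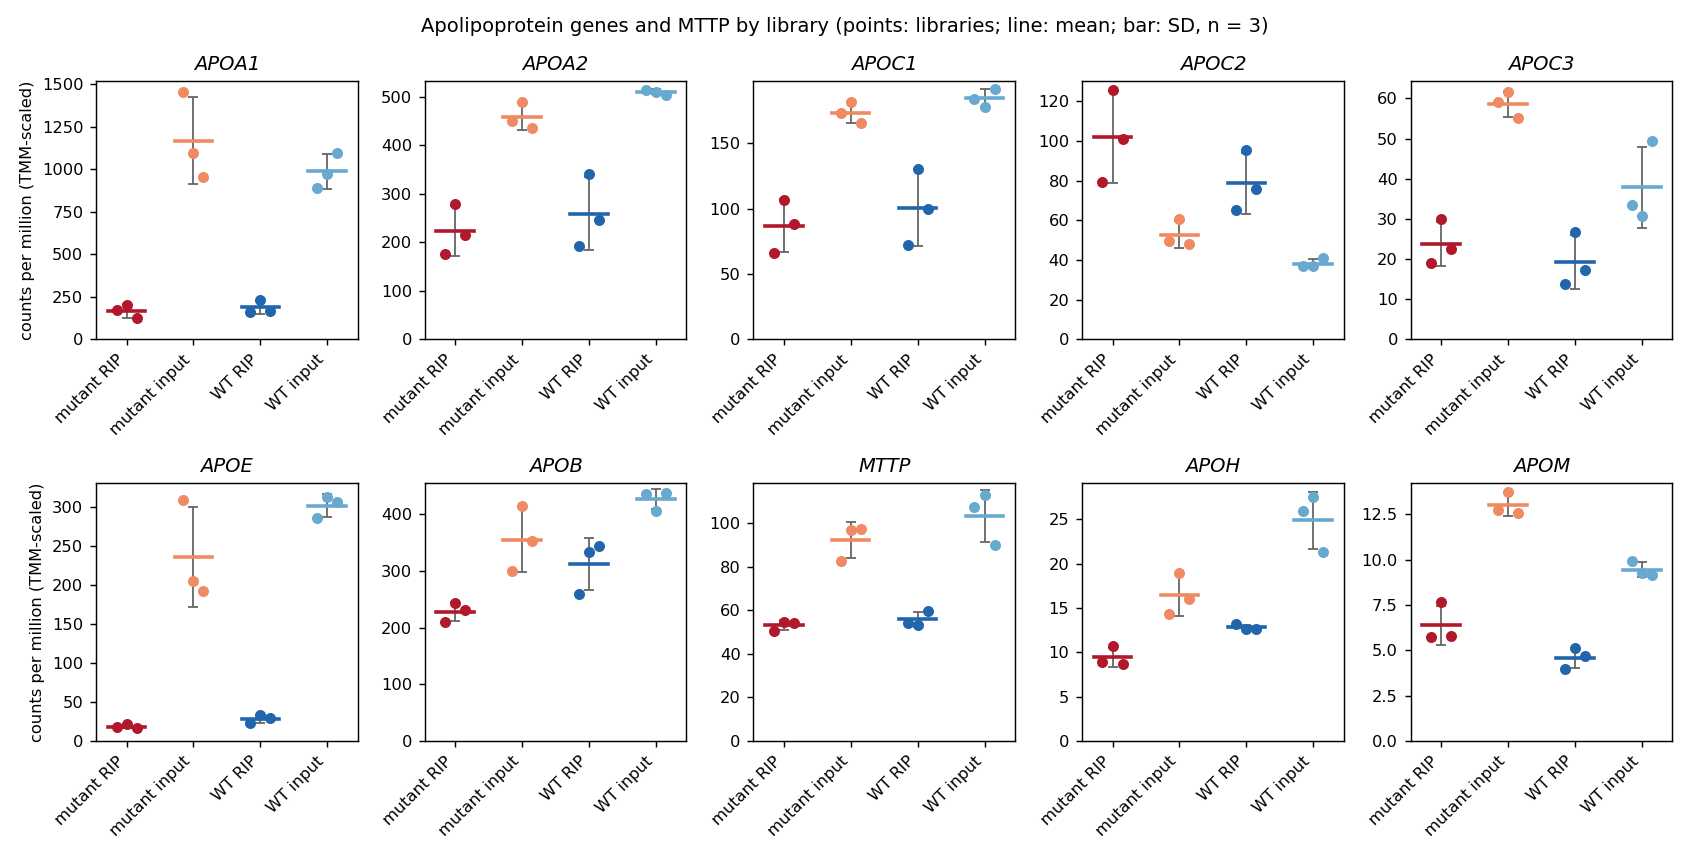
Level of each gene (CPM, linear axis from 0) in the 3 libraries of each group, with mutant RIP beside mutant input and WT RIP beside WT input; points are libraries, lines means and grey bars SD (n = 3). For 9 genes on this TMM scale both precipitate groups lie below their inputs, with APOE at 16.3 to 33.4 CPM in precipitates and 192 to 313 CPM in inputs, and for APOC2 both lie above. Scaling by total library size turns the direction of 6 of the 9 in the mutant line and 7 in the WT line.

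Among the proteins that move between particles, APOE, the ligand of the LDL receptor family, had the largest difference of all 10. It had 18.4, 21.3 and 16.3 CPM in mutant RIP and 309, 206 and 192 CPM in mutant input, and 23.3, 33.4 and 29 CPM in WT RIP and 286, 313 and 307 CPM in WT input. Even the lowest input was several times above the highest precipitate of its line. The log2 fold change was −3.66 ± 0.18 in the mutant line and −3.40 ± 0.18 in the WT line (adjusted p = 8.18e-14 and 6.41e-13), a level 12.6-fold lower in mutant RIP and 10.6-fold lower in WT RIP than in input. Under scaling by total library size it was smaller, at −2.36 (log2) in the mutant line and −2.35 in the WT line. APOE lies at chr19:45409048-45412650 on the plus strand, at the head of a cluster with APOC1 (chr19:45417504-45422606), APOC4 and APOC2 (chr19:45449292-45452822), all on the plus strand.

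APOC1, which inhibits lipoprotein uptake and CETP, had 65.9, 106 and 88.2 CPM in mutant RIP and 173, 182 and 166 CPM in mutant input. It had 71.9, 130.4 and 100.0 CPM in WT RIP and 184, 178 and 191 CPM in WT input. The inputs were tight and the precipitates wider, with the second library highest in both lines. The log2 fold change was −1.0 ± 0.18 in the mutant line and −0.87 ± 0.18 in the WT line (adjusted p = 4.06e-05 and 0.000237). APOC3, an inhibitor of lipoprotein lipase, lies beside APOA1 (chr11:116700422-116703788, plus strand). It had 19, 29.9 and 22.4 CPM in mutant RIP and 59, 61.7 and 55.2 CPM in mutant input, and 13.8, 26.8 and 17.4 CPM in WT RIP and 33.5, 30.7 and 49.3 CPM in WT input. Its log2 fold change was −1.30 ± 0.25 in the mutant line and −0.97 ± 0.25 in the WT line (adjusted p = 0.000597 and 0.00548), with the widest SE of the 10 genes. Neighbours in the genome had values of different size: −3.66 for APOE beside −1.0 for APOC1, and −2.81 for APOA1 beside −1.30 for APOC3, in the mutant line.

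APOC2, the cofactor of lipoprotein lipase, was the exception. It had 79.5, 126 and 101 CPM in mutant RIP and 49.5, 60.6 and 48.2 CPM in mutant input. It had 65, 95.2 and 75.9 CPM in WT RIP and 36.8, 36.8 and 40.8 CPM in WT input. All 3 precipitates lay above all 3 inputs in each line, with a log2 fold change of 0.95 ± 0.16 in the mutant line and 1.04 ± 0.16 in the WT line (adjusted p = 1.11e-05 and 4.53e-06). This value cannot be given to APOC2 alone. Over the 12 libraries APOC2, the readthrough gene APOC4-APOC2 and APOC4 had totals of 44714, 44640 and 44642 counts, and in no library did they differ from APOC2 by more than 0.963%. APOC4-APOC2 shares 53.5% of the exon bases of APOC2 on the same strand, so the 3 genes of this locus cannot be told apart and the values are those of the locus.

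On the TMM scale APOB had the smallest difference from input of the 10 genes. MTTP, which lipidates APOB, had one of less than 1 log2 unit in both lines. APOB (chr2:21224301-21266945, minus strand) had 210.3, 244 and 230.4 CPM in mutant RIP and 301, 414 and 352 CPM in mutant input. It had 259, 333 and 344 CPM in WT RIP and 435, 406 and 438 CPM in WT input. The groups did not overlap, the highest WT precipitate being at 344 CPM and the lowest WT input at 406 CPM. The log2 fold change was −0.64 ± 0.15 in the mutant line (adjusted p = 0.000617) and −0.45 ± 0.15 in the WT line (adjusted p = 0.0128). In the WT line this call was lost without WT RIP 1 (−0.33, adjusted p = 0.0735) and without WT input 1 (−0.40, adjusted p = 0.051), and with TMM taken from protein-coding genes (−0.31, adjusted p = 0.0833). Under scaling by total library size APOB stood above 0, at 0.67 in the mutant line (adjusted p = 0.000796) and 0.59 in the WT line (adjusted p = 0.00367). With the GC trend removed APOC3 had the smallest difference (−0.29 in the mutant line and −0.14 in the WT line), against −0.87 and −0.58 for APOB. MTTP (chr4:100485238-100545154, plus strand) had 50.6, 54.5 and 54.3 CPM in mutant RIP and 82.8, 96.7 and 97.4 CPM in mutant input, and 54.4, 53.5 and 59.9 CPM in WT RIP and 107, 113 and 89.9 CPM in WT input. Its libraries were close together, and its log2 fold change was −0.80 ± 0.12 in the mutant line and −0.89 ± 0.12 in the WT line (adjusted p = 3.61e-06 and 1.09e-06). APOH (beta-2-glycoprotein I, a phospholipid-binding plasma protein; chr17:64208151-64252643, minus strand) had 8.93, 10.7 and 8.71 CPM in mutant RIP and 14.4, 19 and 16.1 CPM in mutant input. It had 13.2, 12.7 and 12.6 CPM in WT RIP and 26, 27.5 and 21.3 CPM in WT input, and its log2 fold change was −0.80 ± 0.14 in the mutant line and −0.96 ± 0.13 in the WT line (adjusted p = 1.81e-05 and 1.58e-06).

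Set beside the sequences printed above, the 4 genes recovered best in the mutant line were, on the TMM scale, the 4 whose 3′ UTR holds ATTTA, and in the WT line APOC1, which holds none, stood above MTTP and APOH. The 4 genes with ATTTA (APOB, APOC2, APOH and MTTP) had log2 fold changes of −0.80 to 0.95 in the mutant line and −0.96 to 1.04 in the WT line, where the upper end is the value of the whole APOC2 locus and not of APOC2 alone. The 6 without it had −3.66 to −1.0 in the mutant line and −3.40 to −0.87 in the WT line. In the mutant line these ranges do not overlap, and in the WT line they do, through APOC1 (−0.87), MTTP (−0.89) and APOH (−0.96). With the trend of each library with GC content removed the ranges overlapped in the mutant line too (−1.12 to 1.93 with ATTTA and −2.04 to −0.29 without), and APOC3, APOC1, APOA2 and APOM, which hold none, then stood above APOB, APOH and MTTP. Over coding genes, the median was 0.0032 in the mutant line and −0.043 in the WT line for the 9749 genes with ATTTA, against −0.50 and −0.43 for the 3894 without. Split by either motif, the members overlapped in both lines on the TMM scale. The 5 genes with ATTTA or a run had −1.03 to 0.95 in the mutant line and −1.04 to 1.04 in the WT line. The 5 with neither had −3.66 to −0.998 and −3.40 to −0.87. Runs of T alone did not separate the members: APOM, with a run, lay below APOC2 and APOH, which hold none. The count of motifs did not order the members: MTTP, with 5 ATTTA and 8 runs of T, lay below APOB and APOC2, which hold 1 ATTTA each. Coding genes with short 3′ UTRs had a lower median than all coding genes, at −0.24 in the mutant line and −0.23 in the WT line for those of at most 316 bases, where all coding genes had −0.11 and −0.13. These are descriptions of 10 genes, with no test.

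**Figure D4:**
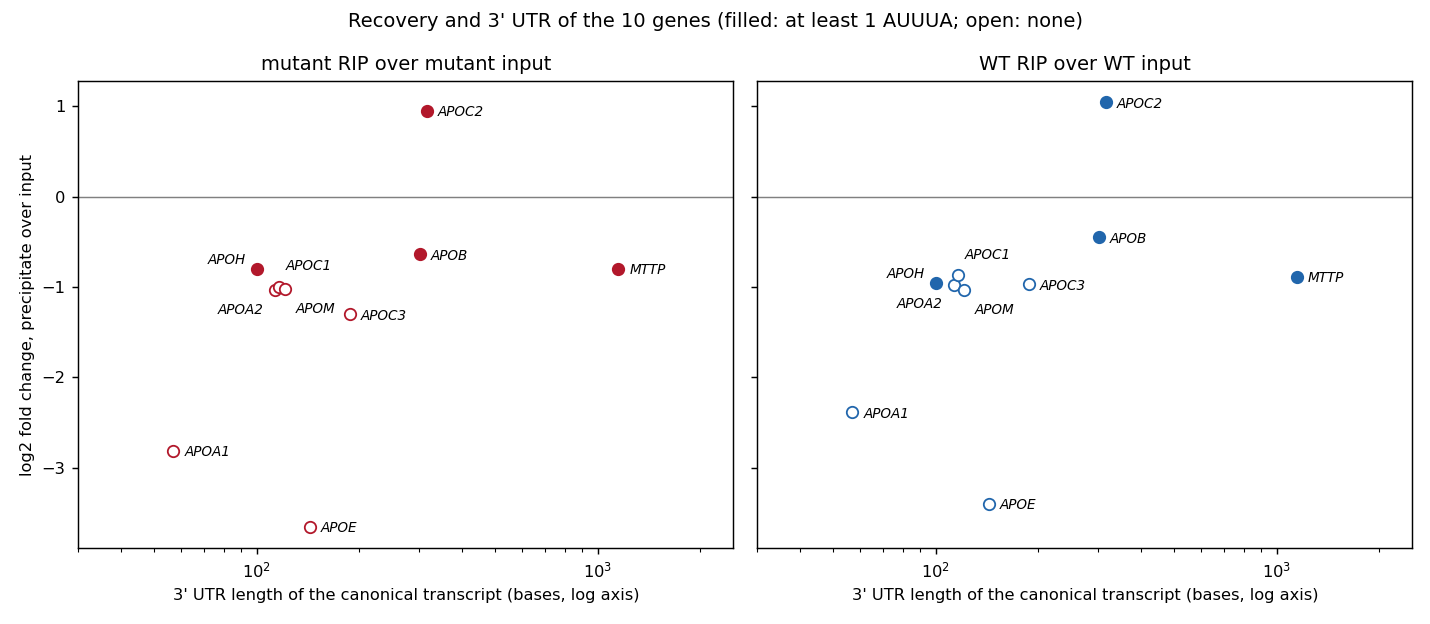
Log2 fold change of precipitate over input (vertical axis; mutant line in the first panel, WT line in the second) against the length of the canonical 3′ UTR in bases (log axis) for the 10 genes; filled points hold at least 1 AUUUA and open points none. The 4 filled points lie between −0.80 and 0.95 in the mutant line and between −0.96 and 1.04 in the WT line, the highest being that of the APOC2 locus, and APOE and APOA1, both open, lie lowest. With the GC trend removed, which is not drawn, filled and open points overlap in both lines.

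Over coding genes base composition moved with recovery too, but it did not order all 10 genes. The transcripts of APOE and APOA1 were 69% and 63.6% G and C, at percentiles 99.5 and 94.4 of protein-coding genes, whereas APOB (43.5%), APOH (42.9%) and MTTP (41.9%) were AT-rich. APOC3 and APOC2 lay close together at percentiles 87.4 and 86.0, with −1.30 and 0.95 in the mutant line. APOC1, APOA2 and APOM lay at percentiles 72.9, 69.0 and 65.7. The 4672 coding genes richest in G and C had a median of −0.82 in the mutant line and −0.66 in the WT line, against 0.39 and 0.18 in the 4673 poorest. With the trend of each library with GC content removed, APOE stood at −2.04 in the mutant line and −2.17 in the WT line, and APOA1 at −1.56 and −1.39. APOC1 (−0.36 in the mutant line, adjusted p = 0.0886; −0.37 in the WT line, adjusted p = 0.0853) and APOC3 (−0.29, adjusted p = 0.324; −0.14, adjusted p = 0.65) then no longer passed, and 8 of 10 genes did in each line. APOC2, at 60% G and C, moved to 1.93 in the mutant line and 1.85 in the WT line. MTTP moved to −1.12 and −1.06, and APOB to −0.87 and −0.58. The part of GC content in recovery was not tested beyond this.

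In none of the 10 genes did the enrichment differ between the lines beyond the spread of the libraries. The difference of enrichments (mutant minus WT) passed the threshold in 0 of 10 genes with edgeR and in 0 of 10 with DESeq2, 0 of 10 had an unadjusted p under 0.05, and the smallest adjusted p was 0.529. In all genes, 0.0653% were called with edgeR, all of them higher. With DESeq2, 389 of 22984 genes were called, 331 higher and 58 lower. The estimates were below 0 in 7 genes and above 0 in 3. APOA1 had the largest, −0.43 ± 0.27 (95% interval −0.98 to 0.13), followed by APOC3 with −0.33 ± 0.35 (−1.09 to 0.42) and APOE with −0.26 ± 0.23 (−0.73 to 0.22). APOM had 0.012 ± 0.21 (−0.41 to 0.44), MTTP 0.090 ± 0.17 (−0.26 to 0.44) and APOH 0.16 ± 0.19 (−0.23 to 0.55). A p above the threshold does not show that the lines recover these mRNAs alike: a difference of 1 log2 unit lies within the interval of APOC3 and outside those of the other 9 genes.

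The precipitates of the mutant line held less APOE, APOB and APOH and more APOM than those of the WT line. The levels listed by library above did not overlap between the lines for these 4 genes, and overlapped for the other 6. APOE averaged 18.7 ± 2.51 CPM in mutant RIP and 28.6 ± 5.07 CPM in WT RIP (SD, n = 3 each), a log2 fold change of −0.61 ± 0.17 (adjusted p = 0.0104). APOB averaged 228 ± 17.1 CPM in mutant RIP and 312 ± 46.1 CPM in WT RIP (−0.45 ± 0.15, adjusted p = 0.0311). APOH averaged 9.44 ± 1.08 CPM in mutant RIP and 12.8 ± 0.327 CPM in WT RIP (−0.44 ± 0.14, adjusted p = 0.0231). APOM averaged 6.38 ± 1.09 CPM in mutant RIP and 4.59 ± 0.563 CPM in WT RIP (0.47 ± 0.15, adjusted p = 0.0249). In all genes 19.6% were called, 9.87% higher and 9.76% lower, and the libraries did not overlap in 18.1% (mutant above) and 17.5% (mutant below). AFP, the most abundant hepatocyte marker, had 2463 to 2801 CPM in mutant RIP and 4361 to 4790 CPM in WT RIP, and the other 7 markers summed to 767 to 859 CPM in mutant RIP and 950.4 to 984 CPM in WT RIP. The part of these markers, and of the enterocyte and immune sums given above, in the result was not tested. The remaining 6 genes did not pass: APOC2 (0.38, adjusted p = 0.089) and APOC3 (0.30, 0.456) lay above 0, and APOC1 (−0.22, 0.435), APOA2 (−0.21, 0.443), APOA1 (−0.18, 0.559) and MTTP (−0.074, 0.731) below.

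Each of these 4 calls was lost when some single libraries were left out. That of APOE was lost without mutant RIP 3 (adjusted p = 0.0621) and without WT RIP 2 (0.0518). That of APOB was lost without mutant RIP 1 (0.0926), mutant RIP 3 (0.0738), WT RIP 2 (0.0742) and WT RIP 3 (0.127), and with only the groups compared in the fit (0.0542). That of APOH was lost without mutant RIP 1 (0.0769), mutant RIP 3 (0.0918) and WT RIP 1 (0.0721). That of APOM was lost without mutant RIP 2 (0.199), WT RIP 1 (0.124) and WT RIP 3 (0.054), with no filter on low counts (0.0546) and with total library size (0.431). APOC2 passed without mutant RIP 1 (0.53, 0.0172) and WT RIP 2 (0.54, 0.0189), and with the replicate number as a block (0.37, 0.0455). APOC3 passed without WT RIP 2 (0.61, 0.0356). Every one of these fold changes kept its sign.

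In the inputs, APOH was lower and the APOC2 locus and APOM were higher in the mutant line than in the WT line. APOH averaged 16.5 ± 2.33 CPM in mutant input and 24.9 ± 3.22 CPM in WT input (SD, n = 3 each), a log2 fold change of −0.60 ± 0.13 (adjusted p = 0.00294). The APOC2 locus averaged 52.8 ± 6.80 CPM in mutant input and 38.1 ± 2.28 CPM in WT input (0.47 ± 0.16, adjusted p = 0.0384). APOM averaged 13 ± 0.640 CPM in mutant input and 9.44 ± 0.428 CPM in WT input (0.46 ± 0.15, adjusted p = 0.0292). BAG6, which overlaps APOM, stood at 0.071 in the inputs and 0.15 in the precipitates (log2, mutant over WT). In all genes 17.5% were called, 7.47% higher and 10% lower. In a bulk sample, fewer expressing cells and less RNA per cell cannot be told apart. AFP had 4413 to 5704 CPM in mutant input and 7094 to 9171 CPM in WT input, while the other 7 hepatocyte markers summed to 2487 to 2704 CPM in mutant input and 2559 to 2627 CPM in WT input and so overlapped. The part of AFP and of the enterocyte and immune sums in the result was not tested.

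APOC3 had 58.6 ± 3.24 CPM in mutant input and 37.9 ± 10.03 CPM in WT input, without overlap, but its fold change of 0.63 ± 0.25 did not pass (adjusted p = 0.101). It passed without WT RIP 1 (0.0402), WT RIP 2 (0.0145) and WT input 3 (0.87, 0.0214), with DESeq2 (0.0202), with only the 2 input groups (0.00607), with no filter (0.000348) and with the replicate number as a block (0.0267). APOA2 was lower in all 3 mutant inputs than in all 3 WT inputs (−0.15, adjusted p = 0.609). In all genes the libraries did not overlap in 15.6% (mutant above) and 18.1% (mutant below), against 3 and 2 of the 10 here. APOE (−0.36, adjusted p = 0.136), APOA1 (0.24, 0.421), APOB (−0.26, 0.236), APOC1 (−0.088, 0.784) and MTTP (−0.16, 0.389) did not pass and overlapped between the lines. APOE passed without mutant input 1 (−0.59, 0.00695) and with the GC trend removed (−0.60, 0.000433). With total library size APOE (−0.78, 0.000828), APOB (−0.71, 0.00169), APOA2 (−0.59, 0.0102), MTTP (−0.59, 0.0131) and APOC1 (−0.53, 0.0267) passed as lower in mutant input.

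The call of APOH in the inputs held without each library in turn. That of the APOC2 locus was lost without WT RIP 3 (adjusted p = 0.0511), mutant input 2 (0.132), WT input 1 (0.104) and WT input 2 (0.0954), and with the GC trend removed (0.202). That of APOM was lost without mutant input 2 (0.0707), WT input 1 (0.0515), WT input 2 (0.0736) and WT input 3 (0.0733), and with no filter (0.0571). With total library size the 2 rises shrank to 0.024 and 0.021, where the median of all genes was −0.43.

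**Figure D5:**
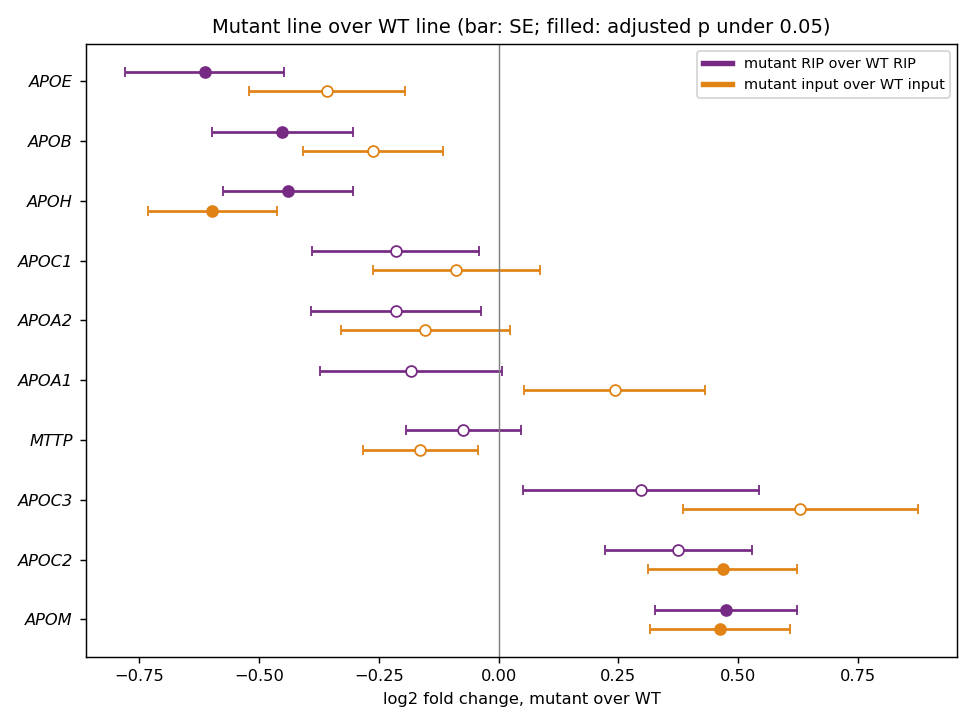
Log2 fold change of the mutant line over the WT line for each gene, in precipitates (mutant RIP over WT RIP) and in inputs (mutant input over WT input); points are estimates, bars SE, and filled points passed an adjusted p of 0.05. APOE, APOB, APOH and APOM are filled in the precipitates and APOH, APOC2 and APOM in the inputs, and APOM has nearly the same value in both (0.47 in precipitates and 0.46 in inputs).

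Other genes of the lipoprotein pathway were counted from 6 lists chosen with earlier results of these data known. Of all genes tested, 28% were lower and 29% higher in mutant RIP, and 25.4% lower and 25.6% higher in WT RIP (medians 0.072 and 0.063). Of 28 tested genes of other secreted plasma proteins, 26 were lower in mutant RIP and 25 in WT RIP, each against its input, and 0 were higher (medians −1.42 and −1.31). SERPINA1, the antitrypsin of plasma, stood at −3.31 in the mutant line and −2.93 in the WT line, AMBP at −2.89 and −2.77, and VTN (vitronectin, 17.3% of whose exon bases lie in another gene on the same strand) at −3.07 and −2.90. APOE lay below SERPINA1, the lowest of this list, in both lines, and APOA1 lay within the range of the list. Of 13 other apolipoproteins and lipoprotein-bound proteins, 6 were lower and 1 higher in mutant RIP, and 7 lower and 1 higher in WT RIP (medians −0.39 and −0.56). CLU (clusterin, also named apolipoprotein J) stood at −3.49 in the mutant line and −2.88 in the WT line, and PLTP, the phospholipid transfer protein, at −2.61 and −2.30, whereas the 1 called higher, APOC4, belongs to the APOC2 locus.

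Of 15 genes of lipoprotein assembly and lipid loading in the endoplasmic reticulum, 9 were lower and 3 higher in mutant RIP and 11 lower and 1 higher in WT RIP (medians −0.64 and −0.69). P4HB, the partner subunit of MTTP, stood at −2.62 in the mutant line and −2.31 in the WT line, against −0.80 and −0.89 for MTTP. DGAT1, which makes triglyceride, stood at −2.50 and −2.38, and SURF4, a cargo receptor, at −1.67 and −1.26. Of 13 receptors and uptake genes, 9 were lower and 1 higher in each line (medians −0.95 and −0.63), with LRPAP1, a chaperone of LRP receptors, at −3.31 in the mutant line and −2.84 in the WT line. Of 9 tested lipases, transfer and remodelling genes, 6 were lower and 1 higher in mutant RIP and 5 lower and 1 higher in WT RIP (medians −1.07 and −0.52), with SCARB1, the high-density lipoprotein receptor, at −2.56 and −2.06. Of 20 regulators, 12 were lower and 2 higher in mutant RIP and 9 lower and 3 higher in WT RIP (medians −0.50 and −0.29). Beside these counts, 28% of all genes were lower and 29% higher in mutant RIP, and 25.4% and 25.6% in WT RIP. NR1H4, the bile acid receptor, was higher at 1.38 in the mutant line and 1.13 in the WT line, and SREBF2, a regulator of sterol synthesis, was lower at −2.04 and −1.55. With total library size, only the list of plasma proteins still had more lower than higher genes (10 and 2 in the mutant line, 11 and 2 in the WT line). Of all 22984 genes, 923 were then lower and 16792 higher in the mutant line, and 881 and 15757 in the WT line. In the mutant line the other apolipoproteins then had 2 lower and 8 higher genes, assembly 3 and 9, receptors 4 and 6, lipases 1 and 3 and regulators 2 and 13, and SURF4 no longer passed (−0.36, adjusted p = 0.0829; in the WT line −0.19, 0.356). Exons of PLTP (12.9%), DGAT1 (10.7%), SREBF2 (9.08%), SCARB1 (7.52%), LRPAP1 (7.16%), P4HB (4.75%) and A1CF (3.94%) overlap those of other genes, so part of their counts is uncertain.

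Between the lines, the largest change in the 6 lists was that of SAA4, a constitutive serum amyloid A protein. In the inputs 5 of the 13 other apolipoproteins and lipoprotein-bound proteins were higher and 1 lower in the mutant line (median 0.52, against 0.0029 over all genes). Among the 5 is APOC4 (0.47, adjusted p = 0.0371), which belongs to the APOC2 locus already given above. Of all genes 7.47% were higher and 10% lower in this comparison. SAA4 had 0.238, 0.312 and 0.317 CPM in mutant input and 4.46, 5.44 and 4.37 CPM in WT input, a log2 fold change of −4.02 ± 0.29 (adjusted p = 8.72e-10). In the precipitates it had 0.240, 0.326 and 0.252 CPM in mutant RIP and 3.26, 4.09 and 2.33 CPM in WT RIP (−3.55 ± 0.27, adjusted p = 2.04e-09). The readthrough gene SAA2-SAA4 shares 75.6% of its exon bases. CLU (0.65, adjusted p = 0.00196) and PLTP (0.68, 0.000388) were higher in mutant input, and PON1, a paraoxonase carried on high-density lipoproteins, was higher in mutant RIP (0.83, 8.59e-05) and in mutant input (0.56, 0.00484). With total library size CLU (0.23, adjusted p = 0.4) and PLTP (0.25, 0.362) no longer passed, and 0 of these 13 genes were higher and 2 lower in mutant input. Of all 22984 genes, 386 were then higher and 6822 lower in mutant input.

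Of the 9 lipases, transfer and remodelling genes, 3 were lower and 0 higher in mutant input and 5 lower and 0 higher in mutant RIP, with LIPG, endothelial lipase, at −0.84 and −1.0. A1CF, a cofactor of APOB mRNA editing, was lower in mutant input (−0.92, adjusted p = 6.97e-06) and in mutant RIP (−0.63, 0.000374). Of the assembly genes, 5 were lower and 1 higher in each comparison, and they were not all the same genes. The COPII coat genes SEC23A (−0.73), SEC24A (−0.68) and SAR1B (−0.57), which bud lipoprotein carriers from the endoplasmic reticulum, were lower in mutant input, and SEC24A and SAR1B overlap by part of their exons. SAR1B did not pass there without WT input 1 (−0.47, adjusted p = 0.0505). In mutant RIP SAR1B was lower (−0.52, 0.00607), while SEC23A (−0.30, 0.0663) and SEC24A (−0.11, 0.615) did not pass. SORT1, a sorting receptor of APOB particles, was lower in mutant input (−0.57, adjusted p = 0.000831) and mutant RIP (−0.71, 7.64e-05). HNF4A, which drives apolipoprotein transcription in hepatocytes, was lower in mutant RIP (−0.70, 0.0011). Its levels in the inputs overlapped between the lines (108 to 140 CPM in mutant input and 120 to 154 CPM in WT input). In the inputs, where 7.47% of all genes were higher and 10% lower, 2 of the 13 receptors were higher and 2 lower, 6 of the 20 regulators were higher and 2 lower, and 4 of the 28 plasma proteins were higher and 4 lower. In the precipitates, where 9.87% of all genes were higher and 9.76% lower, 0 receptors were higher and 2 lower, 5 regulators were higher and 7 lower, and 3 plasma proteins were higher and 8 lower. With total library size the inputs held 0 higher and 7 lower regulators and 1 higher and 14 lower plasma proteins. Of all 22984 genes, 386 were then higher and 6822 lower.

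The genes most like each member over the 12 libraries were sought among 2764 abundant protein-coding genes by the root mean square difference of log2 CPM centred on each gene's mean. Among the members themselves, APOA2 and APOC1 were the most alike pair (0.063) and APOC2 and APOE the least (2.31). APOE had no close match: the nearest was SERPINA1 at 0.319. APOA1 was nearest to BSG (0.141), APOB to CENPF (0.0969), APOH to SPTLC3 (0.0949), APOM to NME2 (0.118) and MTTP to HACD3 (0.0893). The nearest of APOA2 (0.0591) and of APOC1 (0.104) was AL590714.1, which overlaps APOA2. The nearest of APOC2 were the 2 genes of its own locus and then RPL27A (0.107). All points share the 12 libraries and their scaling.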

How the data were processed

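RNA was sequenced from V5 precipitates and total RNA of both HuH-7 lines, 3 libraries per group. The authors deposited raw read counts per Ensembl gene for each library, without pooling. Per the submitters' processing notes, bcl2fastq 2.20.0.422, cutadapt, STAR 2.4.0j and featureCounts 1.6.4 were used with hg19. The annotation they counted on, whether strand was used and how reads in several genes were treated are not given in the sources used here. The libraries were made with a stranded total RNA kit, per the labels.

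Symbols, exon lengths and 3′ UTRs came from GENCODE release 44 placed on GRCh37, which matched 55538 of 57773 identifiers. Unmatched identifiers took at most 21.0% of the counts in a library. Replicates differed by more than sampling noise (between pairs, chi-square divided by its degrees of freedom was 14.97 to 229), so each counted as 1 sample. Counts were scaled by TMM (factors 1.32 to 1.78 in RIP and 0.526 to 0.909 in input libraries) after filterByExpr (minimum count 10, minimum total 15). With edgeR 4.0.16 (R 4.3.3, limma 3.58.1) the 12 libraries were fitted together by robust quasi-likelihood, with 4 group coefficients and 8 residual degrees of freedom, and p-values were adjusted by Benjamini-Hochberg over 22984 genes. SE were derived from the F statistic. The fit was run on simulated data in which few genes were changed, in 1 group only. Between precipitates and inputs 57% of genes were called in the mutant line and 50.9% in the WT line. The simulation therefore did not test the scaling of these comparisons. DESeq2 1.42.0 was an alternative, while annotation and plots used matplotlib 3.10.9, pandas 2.3.3 and numpy 2.4.6 in Python 3.11.15.

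The 10 genes and all lists were chosen with earlier results of these data known. Named genes are the 10, ELAVL1, called list genes among the 3 with the smallest adjusted p per comparison, and for each of the 10 its 3 most alike genes of at least 5 log2 CPM. Of other genes, only those that overlap a named gene are mentioned, a choice made after seeing their values. Alternatives tried were scaling by total library size, by DESeq2's size factors or by TMM of coding genes, the DESeq2 test, no filter or one of 50 counts in 3 libraries, fits of the compared groups alone, the replicate number as a block (also within line), GC trend removal and leaving out each library. CPM per kilobase for the order of levels was chosen after seeing the data. The values of 2 other genes that this rule names are not reported here. Promoters and proteins were not analysed here.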

Additional observations from a re-analysis of the deposited data

How the results depend on the processing

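Over all alternatives, a call counted as kept if it stayed on its side of the threshold and, where either value passed, kept its sign. For the 10 genes that held in 211 of 220 recomputations in the mutant enrichment and 208 of 220 in the WT enrichment. It held in 210 of 210 in the difference of enrichments, 191 of 210 between precipitates and 184 of 210 between inputs. Of other named genes, 1388 of 1437 recomputed fold changes were kept and 0 reversed. Sign changes where neither value passed were not counted. Among them, with total library size, were the differences of enrichments of APOA2 (0.20), APOB (0.082), APOC1 (0.14) and APOC2 (0.17), and APOA1 between inputs (−0.18). Total library size moved most: the genes called numbered 6 in the mutant enrichment (4 higher), 4 in the WT enrichment (2 higher) and 6 between inputs (0 higher, 6 lower). By its construction it adds the shift of the typical gene, whose median it set at 1.38, 1.12 and −0.43. Reversed fold changes under it were, in the mutant enrichment, APOA2 0.26, APOB 0.67, APOC1 0.29, APOH 0.51, APOM 0.27 and MTTP 0.51, and in the WT enrichment APOA2 0.051, APOB 0.59, APOC1 0.15, APOC3 0.041, APOH 0.11, APOM 0.00099 and MTTP 0.18. Leaving out 1 library at a time gave 1 to 4 called genes between precipitates, 1 to 4 between inputs, 10 in the mutant enrichment, 9 to 10 in the WT enrichment and 0 in the difference. Between precipitates 1 was called without mutant RIP 3 and 2 without WT RIP 1 or WT RIP 3. Between inputs 1 was called without mutant input 2, WT input 1 or WT input 2. The cause was not tested. With the replicate number as a block, 10 genes were called in each enrichment, 0 in the difference, 5 between precipitates and 4 between inputs, the added ones being APOC2 and APOC3. Correlations of same-numbered deviations ran from −0.52 to 0.61. Each mutant RIP library correlated best with the WT RIP library of its number (0.36, 0.61 and 0.044, against at most 0.16, −0.25 and 0.0021 for other numbers). In the other pairs of groups not every sample correlated best with its own number. The main fit did not use the replicate number, and what the precipitates of a number share was not tested. APOM and APOH had the lowest counts of the members and APOC3 the widest SE, so the limit that depth sets on each gene was not separated from the spread of the libraries.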
